A study of Mus musculus with 2 samples.

Results

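The genes described here are 41 genes of DNA replication and S phase, taken by symbol from the 17492 genes of a single-cell count matrix, and all 41 had a row in it. The cells came from the epithelium of the cornea of C57BL/6J mice, all males and 20 weeks old. The control mice had received citrate buffer, and the diabetic mice had been given streptozotocin at 160 mg/kg in 1 dose, a toxin that destroys the insulin-producing beta cells of the pancreas. Each group was 1 library from a pool of 4 corneas of 2 mice, and the diabetic mice had kept a blood glucose over 250 mg/dL for 12 weeks, per the labels. Dissociated epithelial cells were read with a 3′ assay that counts each captured molecule once by its unique molecular identifier (UMI). The authors gave each cell 1 of 8 labels (TAC1, TAC2, LSC, Basal, Wing, Conj, Squam or Immune), whose abbreviations are not spelled out in the sources used here.

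As background, a replication origin is licensed before S phase, when Cdc6 and Cdt1 load the ring-shaped helicase formed by Mcm2 to Mcm7, and Mcm10 helps to start it. Cdc45 and the GINS proteins (here Gins1, Gins2 and Gins3) then activate that helicase. Pola1 and Prim1 lay the primers, Pold1 and Pole are catalytic subunits of the polymerases that extend them, and Pcna is the sliding clamp that the replication factor C subunits (Rfc2 to Rfc5) load. Rpa2 covers single-stranded DNA, while Fen1 and Lig1 finish the fragments of the lagging strand. Rrm1, Rrm2, Tyms, Tk1 and Dut make or guard the pool of deoxynucleotides. Chaf1a, Chaf1b, Uhrf1, Dnmt1, Hells and Slbp serve chromatin, DNA methylation or histone supply on the new DNA, and Ccne1, Ccne2, Dtl, Clspn and Ung act in S phase entry, its checkpoint or base repair. In the cornea, cells divide in the basal layer and stop dividing as they move up to the surface, so a tissue sample mixes replicating and resting cells.

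Many replication genes are targets of the E2F transcription factors, and the promoters of 35 of the 41 genes had an entry in the RefSeq table (build GRCm38.p6, windows of 300 bases around each start). Searched as TTTGGCGC, TTTCGCGC, TTTCCCGC or TTTGCCGC on either strand, an E2F word stood in the window of 16 of the 35 genes (45.7%), against 2.61% of the 27025 genes in the table. The second form, GGCGGGAA on either strand, which can overlap TTTCCCGC, stood in 7 (20%), against 2.52%. Either form was found in 20 of 35 (57.1%), against 4.46% of all genes in the table and 8.49% of the 9487 genes that were measured in these cells and had a promoter. Of 62 other replication genes, listed further on, 50 had a promoter and 19 (38%) held either form, and of 20 genes of G2 and mitosis 18 had one and 1 (5.56%) did. CCAAT, on either strand, was in 21 of the 35 (60%) against 41.1% of all genes, and in 16 of the 18 G2 and mitosis genes (88.9%). These are matches of letters in a window, not binding sites. The stretches just before the start of 5 members are shown because they hold the forms of the word found in this set, with the E2F words in capitals and each read along its gene. They are chr8:75109329-75109508 (+ strand) for Mcm5, chr1:128359706-128359885 (− strand) for Mcm6, chr19:38930810-38930989 (+ strand) for Hells, chr1:191575545-191575724 (− strand) for Dtl and chr7:102441515-102441694 (+ strand) for Rrm1.
Mcm5: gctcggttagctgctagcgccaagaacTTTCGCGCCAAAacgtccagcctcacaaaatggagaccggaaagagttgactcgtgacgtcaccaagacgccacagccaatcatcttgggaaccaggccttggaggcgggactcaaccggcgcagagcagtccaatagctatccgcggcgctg
Mcm6: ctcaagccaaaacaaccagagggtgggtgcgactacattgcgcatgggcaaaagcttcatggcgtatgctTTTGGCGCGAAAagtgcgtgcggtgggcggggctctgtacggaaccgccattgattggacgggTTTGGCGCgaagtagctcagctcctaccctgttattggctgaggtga
Hells: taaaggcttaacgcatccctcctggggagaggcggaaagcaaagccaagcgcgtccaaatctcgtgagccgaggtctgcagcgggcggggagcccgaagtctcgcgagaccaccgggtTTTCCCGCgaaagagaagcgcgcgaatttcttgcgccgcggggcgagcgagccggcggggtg
Dtl: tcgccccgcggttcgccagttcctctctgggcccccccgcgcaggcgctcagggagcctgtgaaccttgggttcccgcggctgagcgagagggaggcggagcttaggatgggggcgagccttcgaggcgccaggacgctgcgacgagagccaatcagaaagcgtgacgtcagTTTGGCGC
Rrm1: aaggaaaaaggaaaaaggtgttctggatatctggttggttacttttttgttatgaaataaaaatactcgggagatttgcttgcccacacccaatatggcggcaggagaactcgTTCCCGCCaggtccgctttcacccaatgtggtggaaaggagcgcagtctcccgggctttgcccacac
In Mcm5 and Mcm6, words on opposite strands overlap and read as 1 longer run of capitals. Among these stretches Mcm6 holds a further separate copy, and Rrm1 holds only the second form.

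The control library held 9605 cells with a median of 16487 UMIs, and the diabetic library 8203 cells with a median of 17677. The gap was wider in single labels, up to medians of 16629 and 24500 UMIs in TAC2 cells. Cells were therefore compared at matched depth: 5000 UMIs were drawn at random from each, and cells with fewer did not enter, which kept 9119 control and 7939 diabetic cells. Levels are given as CPM, each gene's UMIs scaled to the usual common total of thinned UMIs, and a level of 1 gene is not comparable with that of another, since 3′ capture differs between genes. Each group is 1 library, so there is no test and no p-value, and every 95% interval covers counting error only. A member was counted as higher or lower in the diabetic library when its ratio was 1.5 or more either way, with 50 or more summed UMIs and Poisson intervals that did not overlap. The draw itself adds noise to single genes, so the expected value of the thinning (each count times 5000 over its cell's UMIs) is given beside ratios that turn on it. In tissue, fewer cells of a type and less RNA per cell cannot be told apart, but levels within a label hold depth per cell fixed. The 2 libraries shared 18 cell barcodes, and leaving out those cells moved none of the 32 results recomputed without them beyond its counting error. The markers listed for TAC cells were highest in TAC2 for 6 of 6 genes (Mki67, Top2a, Ube2c and others), and 4 of 5 Squam and 3 of 5 LSC markers were highest under their own label. None of the 5 Basal markers was highest in Basal cells, where Itgb4 and Col17a1 were slightly below their TAC1 level. The other 3 were further off in unthinned counts of both libraries. Krt14 stood at 558 CPM in Basal against 3669 in LSC cells, and Krt5 at 6506 against 11771 in Wing cells. Wnt10a stood at 98.4 CPM against 115 in LSC cells. The labels were made by the authors from the expression of these cells, so that levels by label are a description.

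Among the 7 labels other than Immune, which kept 4 and 1 cells, all 41 members were highest in TAC1 or TAC2 cells in both libraries. TAC1 was the highest label for 29 members in control and 27 in diabetic cells, TAC2 for the other 12 and 14, and the highest label was the same in both libraries for 39 of the 41. The exceptions were Mcm10 and Fen1, whose TAC1 over TAC2 ratios had intervals that held 1 in both libraries. The median member stood 9.46 times higher in TAC1 than in Basal cells in control and 9.18 times in diabetic cells. Squam cells, which carry the surface-layer markers Psca and Muc4, held 0.90 and 0.901 UMIs of the 41 genes per cell, against 14.7 and 14.2 in TAC1.

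**Figure D1:**
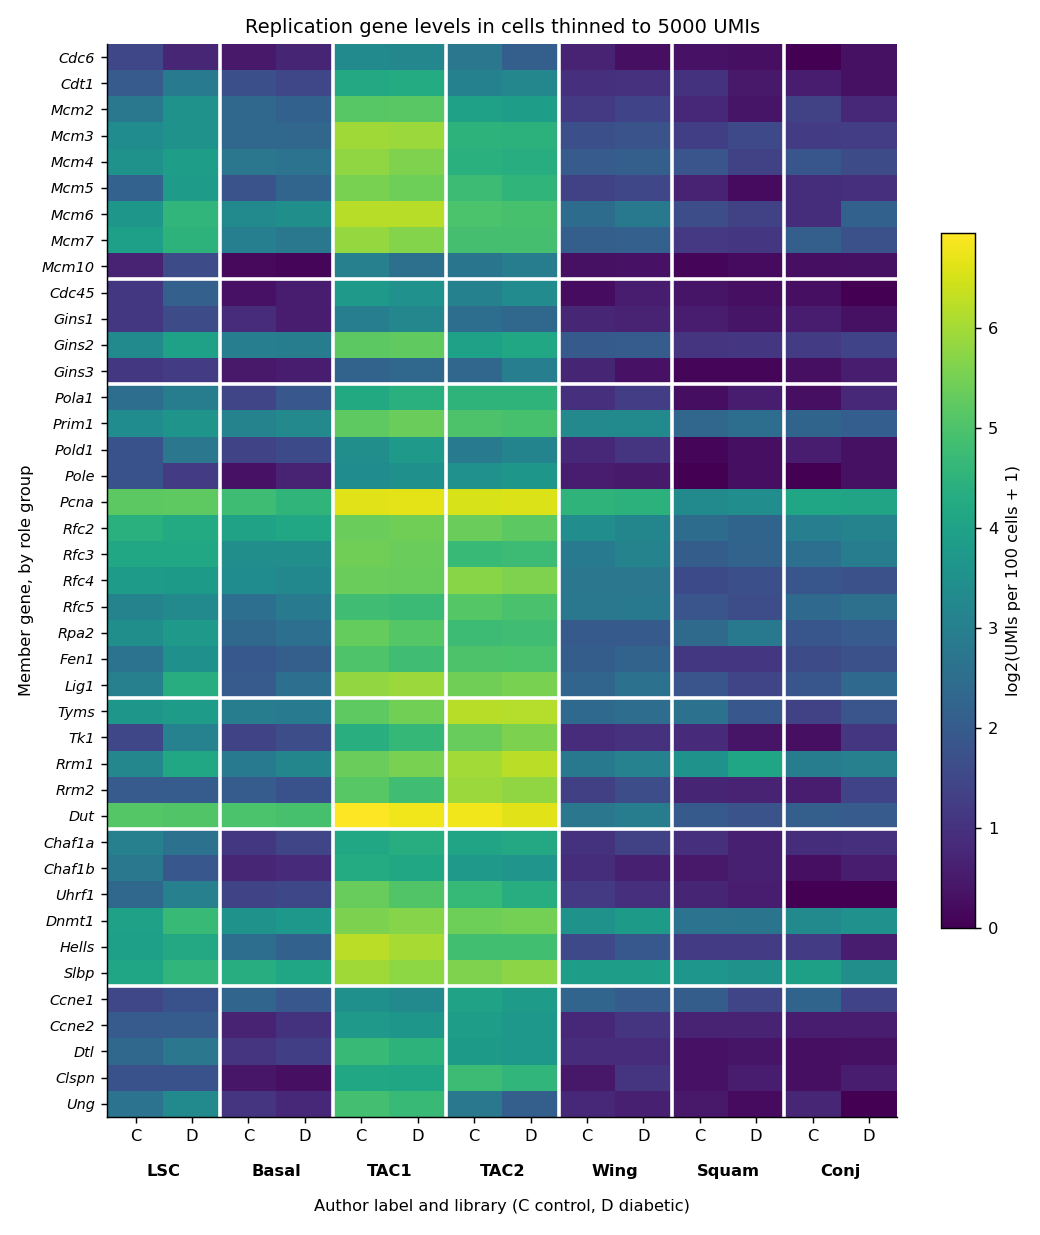
Levels of the 41 genes (rows, by role group) in 7 author labels of the control (C) and diabetic (D) library, as log2 of UMIs per 100 cells plus 1, in cells thinned to 5000 UMIs. Every row is brightest in TAC1 or TAC2, and both columns of a label look alike in most rows.

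Of the licensing genes, Mcm6, a subunit of the helicase ring, stood at 147 CPM in control and 146 in diabetic TAC1 cells, 61.5 and 58.6 in TAC2, 23.7 and 46.1 in LSC, 18.2 and 20.2 in Basal, 8.94 and 12.0 in Wing, 4.28 and 3.21 in Squam and 1.77 and 6.98 in Conj cells. Mcm7, another subunit, stood at 113 CPM in control and 99.7 in diabetic TAC1 cells, 57.9 and 58.0 in TAC2, 28.4 and 43.4 in LSC, 14.1 and 11.6 in Basal, 6.64 and 6.81 in Wing, 2.47 and 2.29 in Squam and 6.64 and 4.65 in Conj cells. Both genes were highest in TAC1, lower in TAC2 and next in LSC cells. The licensing group of 9 genes is taken here with Mcm10 in it. Summed over the group, TAC1 cells held 3.59 UMIs in control and 3.37 in diabetic cells, TAC2 cells 1.61 and 1.53, and Squam cells 0.0999 and 0.0749. Cdc6 (17.8 and 16.6 CPM in TAC1) and Mcm10 (14.5 and 9.95) were the genes of this group with the fewest UMIs. In the expected value of the draw they stood at 17.0 and 13.8 CPM and at 14.2 and 12.2 CPM.

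Of the helicase activators, Gins2 stood at 72.3 CPM in control and 74.7 in diabetic TAC1 cells, 29.5 and 33.5 in TAC2, 17.8 and 29.8 in LSC, 13.6 and 13.4 in Basal, 5.84 and 6.18 in Wing, 2.21 and 2.29 in Squam and 2.65 and 3.26 in Conj cells. Cdc45 was more narrowly placed. It stood at 25.1 CPM in control and 20.9 in diabetic TAC1 cells and 14.7 and 18.5 in TAC2, and at 0.507 and 0.863 in Basal, 0.361 and 0.943 in Wing and 0.649 and 0.459 in Squam cells. LSC cells held 2 Cdc45 UMIs in control and 10 in diabetic cells, and Conj cells 1 and 0. At matched depth TAC1 exceeded Basal cells 49.4 times for Cdc45 in control and 24.2 times in diabetic cells, against 5.31 and 5.59 times for Gins2.

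Among the fork genes, Pcna, the clamp, stood at 198 CPM in control and 200 in diabetic TAC1 cells, 183 and 189 in TAC2, 72.2 and 72.5 in LSC, 53.9 and 44.6 in Basal, 43.8 and 42.1 in Wing, 17.5 and 19.4 in Squam and 32.3 and 31.2 in Conj cells. Rfc2, a clamp loader subunit, followed the same order, with 80.7 CPM in control and 85.9 in diabetic TAC1 cells, 80.2 and 71.9 in TAC2, 40.2 and 35.9 in LSC, 30.1 and 33.4 in Basal, 19.3 and 16.3 in Wing, 8.96 and 7.49 in Squam and 13.7 and 15.3 in Conj cells. The TAC1 over TAC2 interval of Pcna held 1 in both libraries, and that of Rfc2 held 1 in control but not in diabetic cells (1.195, 1.020 to 1.403). Pole, of polymerase epsilon, was far more restricted, at 18.9 CPM in control and 20.3 in diabetic TAC1 cells. It had 0 UMIs in the 1541 control Squam cells (at most 0.479 CPM by the exact Poisson interval) and 3 in the diabetic ones.

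Among the genes of nucleotide supply, Dut, which removes dUTP, stood at 246 CPM in control and 223 in diabetic TAC1 cells, 221 and 197 in TAC2, 67.5 and 65.1 in LSC, 60.8 and 59.4 in Basal, 11.5 and 13.2 in Wing, 5.84 and 4.89 in Squam and 6.64 and 6.05 in Conj cells. The gap between Basal and Wing cells was wider for Dut than for Pcna in both libraries. Rrm1, the large subunit of ribonucleotide reductase, stood at 126 CPM in control and 149 in diabetic TAC2 cells, 80.7 and 91.4 in TAC1, 16.6 and 33.2 in LSC, 12.9 and 16.2 in Basal, 12.0 and 14.9 in Wing, 21.9 and 32.6 in Squam and 13.3 and 14.4 in Conj cells. It was higher in Squam than in Wing and Basal cells in both libraries. Rrm2, the small subunit, kept no such level there, and TAC1 exceeded Squam cells 52.7 and 44.3 times for Rrm2 but 3.68 and 2.81 times for Rrm1.

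In the chromatin group, the maintenance methyltransferase Dnmt1 stood at 93.4 CPM in control and 101 in diabetic TAC1 cells, 83.8 and 88.9 in TAC2, 29.6 and 50.8 in LSC, 21.5 and 24.2 in Basal, 21.8 and 25.6 in Wing, 10.5 and 10.7 in Squam and 17.7 and 20.9 in Conj cells. Slbp, which binds histone mRNA, stood at 122 CPM in control and 107 in diabetic TAC1 cells, 94.9 and 106 in TAC2, 32.0 and 46.1 in LSC, 38.5 and 32.4 in Basal, 27.7 and 27.9 in Wing, 23.0 and 21.9 in Squam and 29.2 and 19.5 in Conj cells. Both kept a sizeable level in every label. The remodeller Hells did not, at 149 and 131 CPM in TAC1, 54.7 and 50.4 times its Squam level.

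In the last group, Clspn, an adaptor of the replication checkpoint, stood at 52.7 CPM in control and 46.2 in diabetic TAC2 cells, 34.2 and 32.3 in TAC1, 4.73 and 4.75 in LSC, 0.677 and 0.431 in Basal, 0.721 and 2.20 in Wing, 0.519 and 0.917 in Squam and 0.442 and 0.930 in Conj cells. Ccne1, the cyclin that drives S phase entry, was the flattest of the group. It stood at 30.1 CPM in control and 26.6 in diabetic TAC2 cells, 20.4 and 17.7 in TAC1, 3.55 and 4.75 in LSC, 7.61 and 5.35 in Basal, 7.57 and 6.18 in Wing, 6.23 and 3.52 in Squam and 7.52 and 3.26 in Conj cells. The 12 genes given so far with all 7 labels are those with the most counts in each of the 6 role groups, and other members were named after their values were seen.

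TAC1 and TAC2 cells held different parts of the set. In both libraries the interval of the TAC1 over TAC2 ratio lay above 1 for 19 members and below 1 for 7. The 19 included all of Mcm2 to Mcm7, Cdc6, Cdt1, Gins2, Hells, Dtl and Uhrf1, with the uracil glycosylase Ung the furthest apart, at 4.84 (3.42 to 7.02) in control and 7.52 (4.90 to 12.1) in diabetic cells. The 7 were Tyms, Tk1, Rrm1, Rrm2, Rfc4, Ccne1 and Clspn. Rrm2 had a ratio of 0.579 (0.502 to 0.669) in control and 0.492 (0.419 to 0.576) in diabetic cells, and Tk1 0.512 and 0.507. So Cdc6, Cdt1 and Mcm2 to Mcm7 leaned to TAC1, and 4 of the 5 genes of nucleotide supply to TAC2, in both libraries. Mcm10, which helps to start the helicase and is only grouped with the licensing genes here, had intervals that held 1 in both. At 2000 UMIs per cell, where fewer molecules remain, 12 members were above 1 in both libraries. Of members with a RefSeq promoter, an E2F word of the first form was found in 12 of 17 of those leaning to TAC1, 1 of 7 of those leaning to TAC2 and 3 of the other 11, and either form in 12, 3 and 5.

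**Figure D2:**
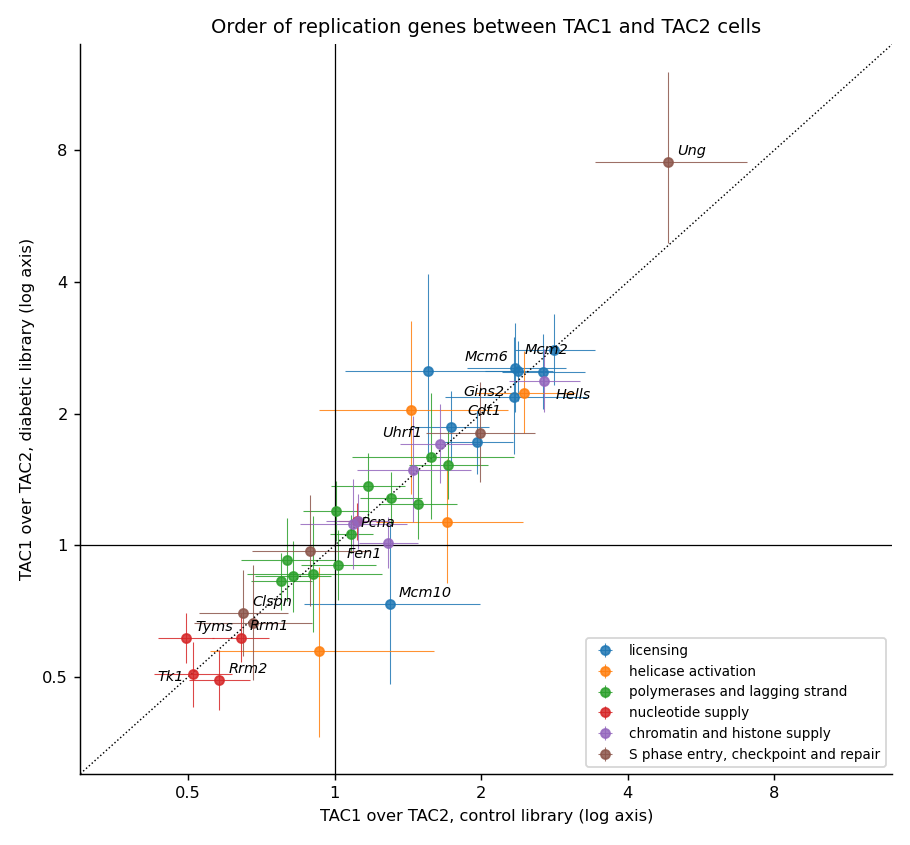
TAC1 over TAC2 ratio of each of the 41 genes in the control (x axis) and the diabetic library (y axis), both on log axes, coloured by role group, with 95% counting intervals and the line of equal ratios dotted. Points follow the line in both libraries, with Ung furthest towards TAC1 and the nucleotide supply genes Tyms, Tk1, Rrm1 and Rrm2 towards TAC2.

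TAC1 and TAC2 cells were also pooled and split by the UMIs of 20 genes of G2 and mitosis, a split that largely follows the labels. In control, 794 cells held 2 or more such UMIs and 726 held none, and in diabetic cells these were 853 and 564. Of those with mitotic UMIs, 538 and 647 were TAC2 cells, and of those without, 659 and 526 were TAC1 cells. In both libraries 23 members were higher in the cells with mitotic UMIs by their intervals, and 6 were lower, namely Mcm2, Mcm3, Mcm4, Mcm6, Hells and Ung. All 7 members leaning to TAC2 were among the 23, and so were 6 of the 19 leaning to TAC1 (Rpa2, Lig1, Dut, Chaf1b, Uhrf1 and Dtl). Rrm2 was 4.45 times higher (3.65 to 5.47) in control and 4.73 times (3.70 to 6.13) in diabetic cells. Clspn followed at 4.44 and 4.29 times, Tyms at 3.43 and 2.83 and Tk1 at 2.98 and 3.40. Mcm6 stood at 64.6 UMIs per 100 cells without and 47.2 with mitotic UMIs in control, and at 65.1 and 42.7 in diabetic cells, ratios of 0.731 and 0.656. Mcm5, Mcm7 and Rfc3 had intervals that held 1 in both libraries. The counts depended on depth: at 2000 UMIs per cell 11 members were higher, and at 10000 UMIs, which keeps deep cells alone, 1 was lower in both.

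**Figure D3:**
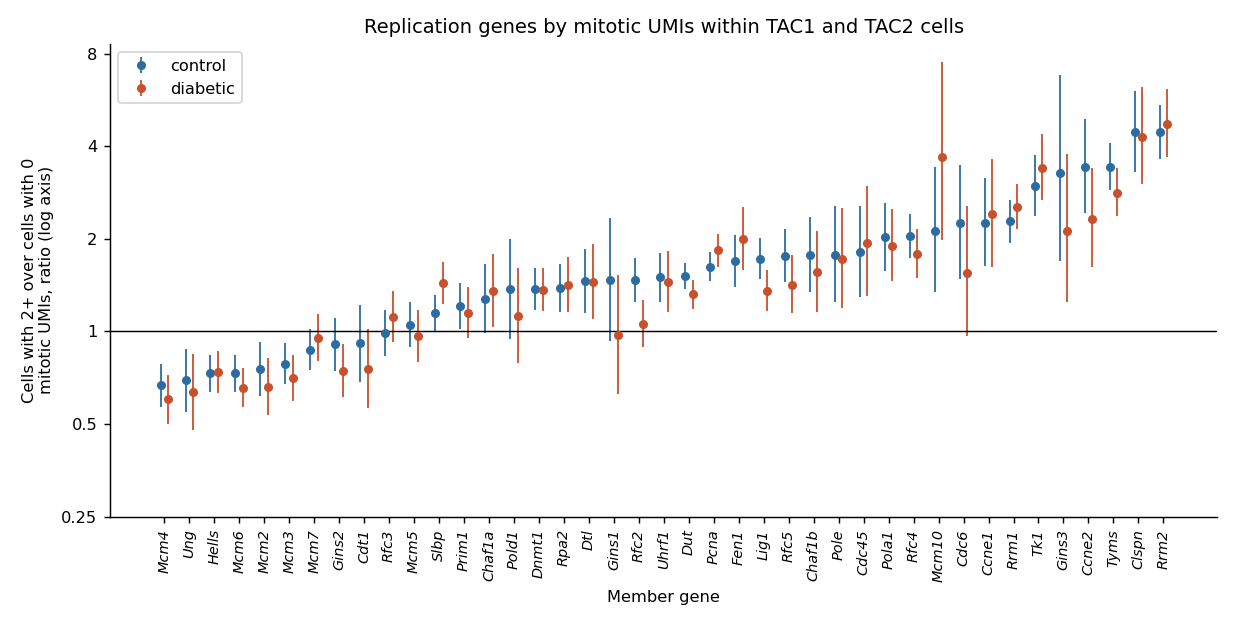
Ratio of the mean level in TAC1 and TAC2 cells with 2 or more UMIs of 20 G2 and mitosis genes over that in cells with 0, on a log axis, for each of the 41 genes in the control and the diabetic library, with 95% counting intervals. Mcm4, Ung, Hells, Mcm6, Mcm2 and Mcm3 lie below 1 and Rrm2 and Clspn above 4 in both libraries.

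Between the libraries, the set as a whole differed little once depth was matched. Summed over the 41 genes, control cells held 4.04 UMIs and diabetic cells 4.21, a ratio of 1.04 (1.03 to 1.06), and no member passed the rule of size in either direction. Over all 12136 genes with 50 or more UMIs in the same cells, 3.3% passed it as higher in diabetic cells and 1.89% as lower. The median log2 ratio was 0.06 over the members and 0.03 over all these genes, and 27 of the 41 members had a ratio above 1, against 55.3% of all genes. At a looser minimum ratio, 0.32 on the log2 scale, 4 members were higher, against 7.65% of all genes, and in TAC1 cells 1 was lower, against 2.78%. The shares of the labels differed as well: the share of TAC2 was 6.84% in control and 8.61% in diabetic, that of LSC cells 2.10% and 4.04%, that of TAC1 cells 13.1% and 12.3%, and that of Wing cells 30.2% and 24.1%. With every label at the same share in both libraries the ratio of the sum was 0.998. Without thinning, where deep cells count for more, the ratio of the sum was 1.18 (1.17 to 1.19) and 40 of the 41 members lay above 1, against 61.4% of all genes. Unthinned, no member passed the rule in either direction, against 5.98% of all genes higher and 2.8% lower.

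**Figure D4:**
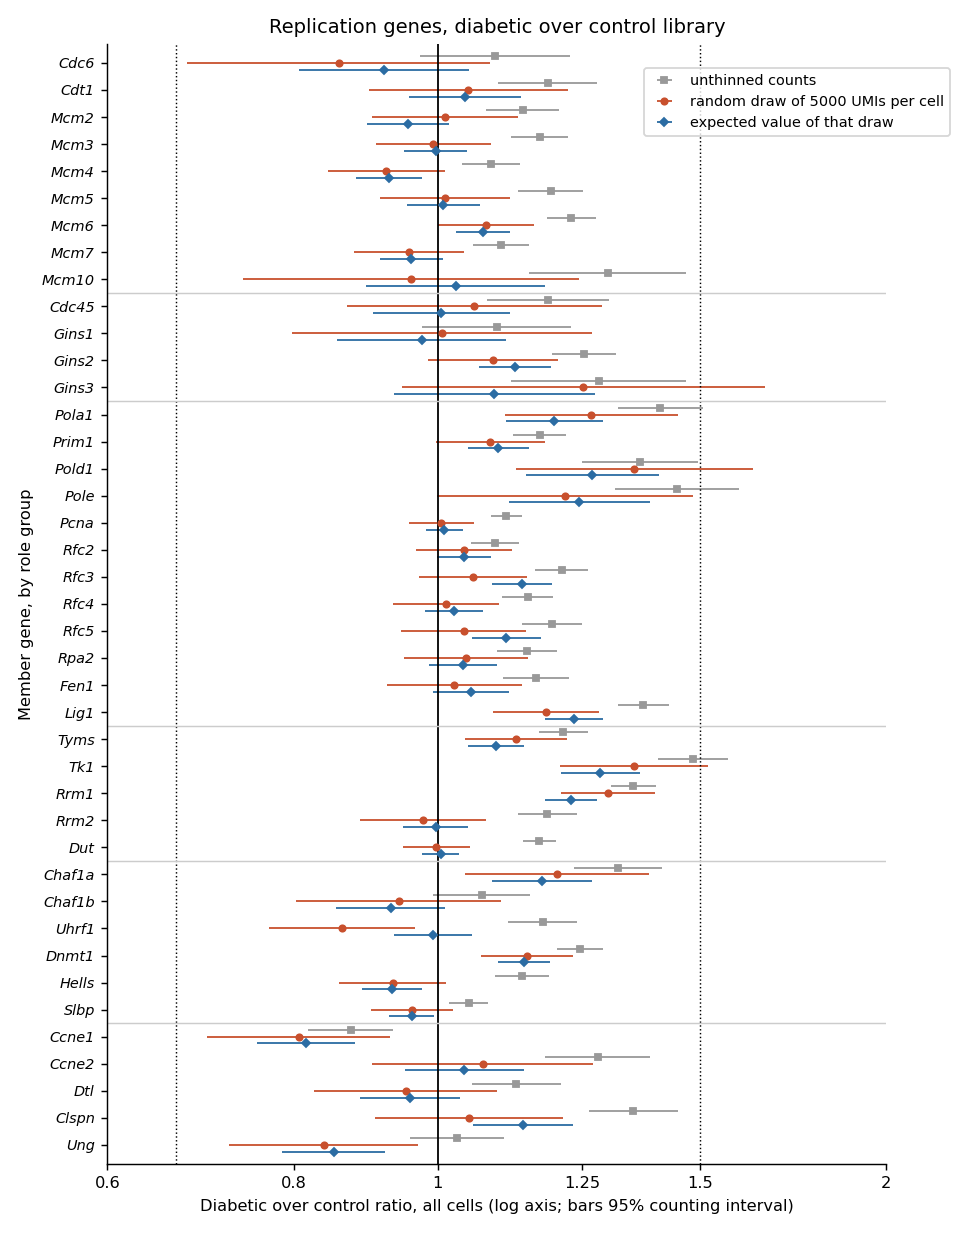
Diabetic over control ratio of each of the 41 genes over all cells, on a log axis, from unthinned counts (grey squares), from the random draw of 5000 UMIs per cell (red circles) and from the expected value of that draw (blue diamonds), with 95% counting intervals and dotted lines at a ratio of 1.5 either way. The grey points lie above 1 for 40 of 41 genes, and the matched points spread around 1 with none past a dotted line.

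Nucleotide supply had the highest ratio of the role groups over all cells, at 1.10 (1.07 to 1.14), and the group of S phase entry, checkpoint and repair the lowest, at 0.928 (0.870 to 0.991). Within TAC1 and TAC2 cells the nucleotide supply group stood at 0.992 (0.941 to 1.05) and 1.003 (0.946 to 1.06). The licensing group stood at 0.997 (0.963 to 1.03). Rrm1 was at 30.7 CPM in control and 40.0 in diabetic cells, a ratio of 1.30 (1.21 to 1.40), with an expected value of 1.23. Thymidine kinase Tk1 was at 12.3 and 16.6 CPM (ratio 1.35, 1.21 to 1.52, expected 1.29), and Pold1, the catalytic subunit of polymerase delta, at 4.89 and 6.63 (ratio 1.35, 1.13 to 1.63, expected 1.27). In the draw, intervals lay above 1 for 8 of 41 members, against 24.7% of all genes, and below 1 for 3, against 19.7%. In the expected value they lay above 1 for 15 and below 1 for 5. The share over all genes was not computed for the expected value. The ratios of Rrm1, Tk1 and Pold1, like those of Pola1, Lig1, Tyms, Chaf1a and Dnmt1, had intervals above 1 both in the draw and in its expected value, and all were under 1.5. On the other side, Ccne1 stood at 10.5 and 8.49 CPM (ratio 0.806, 0.699 to 0.929, expected 0.816) and Ung at 9.74 and 8.16 (ratio 0.838, 0.724 to 0.969, expected 0.851). Pcna and Dut had ratios close to 1. Pcna stood at 71.7 (69.3 to 74.2) CPM in control and 72.1 (69.5 to 74.8) in diabetic cells, and Dut at 69.2 (66.8 to 71.6) and 69.0 (66.4 to 71.6). Uhrf1 shows what 1 draw can do, with a ratio of 0.863 (0.770 to 0.966) in the draw and 0.992 (0.934 to 1.05) in its expected value.

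Within TAC1 cells the 41 genes summed to 14.7 UMIs per cell in control and 14.2 in diabetic cells, a ratio of 0.966 (0.945 to 0.988). No member passed the rule of size in either direction, against 1.01% of all measured genes higher and 1.2% lower in these cells. The licensing group stood at 0.94 (0.898 to 0.984) and the chromatin group at 0.925 (0.877 to 0.977). The group of S phase entry, checkpoint and repair stood at 0.893 (0.815 to 0.978). In the draw 0 of its 5 members lay above 1, against 47.8% of all measured genes, but Clspn had an expected value of 1.05. Intervals of single members in the draw lay above 1 for 1 of 41, against 7.62% of all genes, and below 1 for 8, against 10.7%. In the expected value, where no share over all genes was computed, they lay above 1 for 5 and below 1 for 13. Mcm4 (109 and 95.4 CPM, ratio 0.877), Mcm7 (ratio 0.879, 0.781 to 0.988), Hells (ratio 0.878, 0.792 to 0.973), Slbp (ratio 0.875, 0.781 to 0.980) and Rrm2 (68.4 and 54.2 CPM, ratio 0.792, 0.677 to 0.926) had intervals below 1 in the draw and in its expected value. Tyms was the only member with both above 1, at 72.6 and 87.1 CPM, a ratio of 1.20 (1.05 to 1.37), expected 1.09. Expected ratios of the genes below 1 were 0.862 for Mcm4, 0.846 for Mcm7, 0.870 for Hells, 0.845 for Slbp and 0.873 for Rrm2.

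In TAC2 cells the sum was 11.9 UMIs per cell in control and 11.8 in diabetic cells, a ratio of 0.991 (0.960 to 1.02). No member passed the rule in either direction, against 1.46% of all measured genes higher and 0.827% lower. The group of S phase entry, checkpoint and repair stood at 0.864 (0.756 to 0.987). Again 0 of its 5 members lay above 1 in the draw, against 51.6% of all measured genes. In the draw, intervals lay above 1 for 3 of 41 members, against 8.24% of all genes, and below 1 for 2, against 8.57%. In the expected value, where no share over all genes was computed, they lay above 1 for 5 and below 1 for 5. Rrm1 (126 and 149 CPM, ratio 1.18, 1.03 to 1.35) and Tk1 (78.2 and 94.1 CPM, ratio 1.20, 1.01 to 1.43) had intervals above 1, and Dut (221 and 197 CPM, ratio 0.892, 0.801 to 0.994) below 1. Ung, low in this label, held 36 UMIs in control and 23 in diabetic cells, or 11.8 and 6.64 CPM, a ratio of 0.563 (0.319 to 0.977). Its Poisson intervals overlapped in the draw, but it passed the rule in the expected value (0.609, 0.462 to 0.802) and in unthinned counts. TAC2 was also the label with the widest gap in original depth, and its part in these ratios was not tested.

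The label with the largest difference of the sum was LSC, with 169 control and 295 diabetic cells. The 41 genes summed to 3.46 UMIs per cell in control and 4.59 in diabetic LSC cells, a ratio of 1.33 (1.21 to 1.47), and 13 of the 16 members with 50 or more UMIs had a ratio above 1, against 49.7% of all genes measured there. Lig1, the ligase that seals the lagging strand (chromosome 7, 13277283 to 13311433, + strand of GRCm38), was at 14.2 CPM in control (7.34 to 24.8) and 38.0 in diabetic cells (28.7 to 49.3), from 12 and 56 UMIs, and was the 1 member to pass the rule (ratio 2.67, 1.42 to 5.48, expected 2.16). Over all genes measured in LSC cells 4.13% passed it in either direction. The minimum of 50 UMIs was summed over libraries of 845000 control and 1475000 diabetic thinned LSC UMIs. A gene higher in diabetic cells thus reached it more easily, and Lig1 did so through its diabetic count. Without thinning, 10 of 33 measured members passed as higher, against 2.63% of all genes, and none as lower. LSC intervals lay above 1 for 4 of the 16, against 7.35% of all genes, and below 1 for none, against 9.44%. Mcm6 had a ratio of 1.95 (1.17 to 3.39), Rrm1 2.01 (1.09 to 3.93) and Dnmt1 1.72 (1.08 to 2.82), and the licensing group as a whole 1.67 (1.33 to 2.11), while Dut (67.5 and 65.1 CPM) had a ratio of 0.965 (0.688 to 1.36). Pcna stood at 72.2 (55.2 to 92.7) and 72.5 (59.5 to 87.7) CPM in the draw, and at 59.5 and 74.5 CPM in its expected value. Marker levels are given here from unthinned counts. The sum of the 5 LSC markers was 17431 CPM in control and 13939 in diabetic LSC cells, and that of the 6 TAC markers 51.0 and 88.4. The LSC marker sum is not particular to this label, since it was 27204 and 27862 CPM in Conj cells, where Krt15 was highest. Keratocyte Dcn stood at 13.3 and 23.7 CPM in LSC cells, and their median depth before thinning was 9259.5 and 12284 UMIs. The part of these markers and of depth in the result was not tested. Without likely doublets the ratio of the sum of the 41 genes was 1.28.

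In Basal cells the sum was level, at 2.24 and 2.25 UMIs per cell (interval of the ratio 0.965 to 1.04), and Lig1 was again the 1 member past the rule, against 4.15% of all measured genes in either direction. Lig1 stood at 6.00 CPM in control and 9.58 in diabetic Basal cells, a ratio of 1.60 (1.17 to 2.18), with an expected value of 1.79 (1.47 to 2.18). Basal intervals lay above 1 for 5 of 31 measured members (Lig1, Mcm5, Pola1, Rfc5 and Rrm1), against 14.4% of all genes. They lay below 1 for 3 (Pcna, Slbp and Ccne1, with ratios of 0.828, 0.841 and 0.703), against 15.7%. Wing cells held 1.47 and 1.58 UMIs per cell (ratio 1.07, 1.02 to 1.13), and none of 27 measured members passed the rule, against 3.89% of all genes. Without thinning, 4 of 41 passed as higher, against 3.93%, and none as lower. In Squam cells 1 of 16 measured members passed it, against 5.79% of all genes: Tyms at 10.1 and 5.35 CPM (ratio 0.529, 0.344 to 0.797), whose expected value was 0.813, so that this call rested on the draw. Rrm1 had a Squam ratio of 1.48 (1.21 to 1.83), expected 1.33. In Conj cells the sum was 1.03 and 1.05 UMIs per cell, and none of 6 measured members passed, against 3.65% of all genes.

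**Figure D5:**
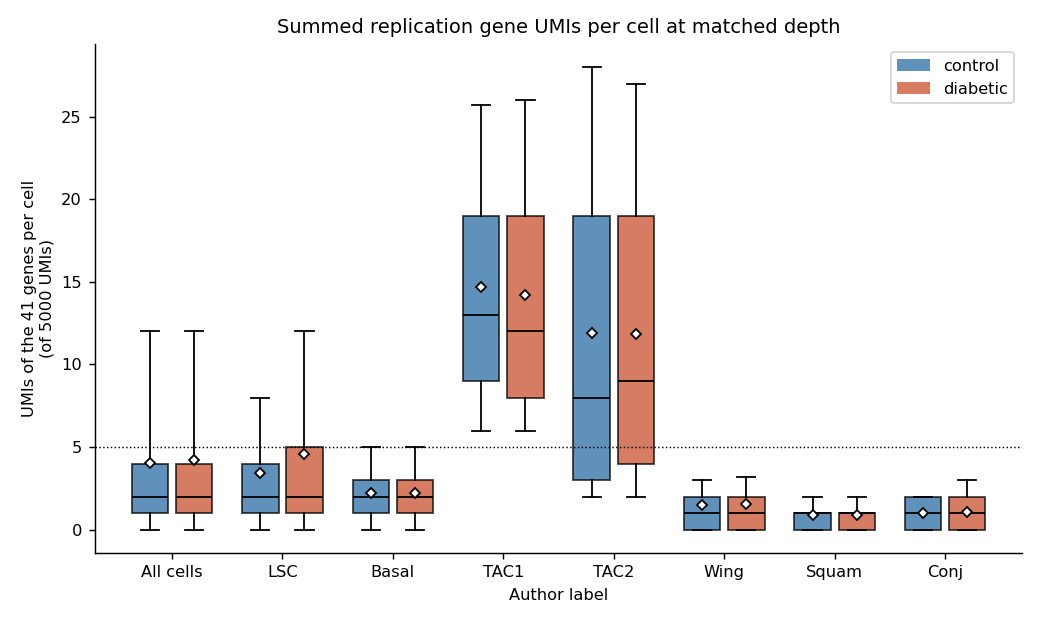
UMIs of the 41 genes per cell, of 5000, by author label in the control and diabetic library: boxes span the quartiles with the median as a line, whiskers the 10th and 90th percentiles, diamonds the mean, and the dotted line marks 5 UMIs. TAC1 and TAC2 boxes reach far above those of the other labels, and in LSC cells the diabetic box and whisker reach higher than the control ones.

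Counted as cells, 2008 control cells (22.0%, 21.2 to 22.9) and 1889 diabetic cells (23.8%, 22.9 to 24.7) held 5 or more UMIs of the set, a range of a sum and not a cell type. The ratio of the shares was 1.08, with outer limits of 0.999 and 1.17, and 668 control and 701 diabetic cells lay at 4 or 5 UMIs. In Squam cells the share was 1.88% and 1.91%, at median depths of 22382 and 21047 UMIs before thinning. It is given as the share in cells of the surface layer, and 6 of the 29 such control cells held 2 or more mitotic UMIs. By label the share was 96.9% and 94.5% in TAC1, 66.9% and 68.8% in TAC2, 17.8% (12.3 to 24.4) and 28.1% (23.1 to 33.6) in LSC, 10.7% and 11.3% in Basal, and 3.89% and 5.29% in Wing cells. The labels of these cells were made up differently: TAC1 gave 58.1% of them in control and 49.3% in diabetic cells, TAC2 20.4% and 25.3%, and LSC 1.49% and 4.39%. Such cells had been deeper before thinning in TAC2, with medians of 21980 UMIs against 13229 in the other control TAC2 cells, and 25926 against 17166.5 in the diabetic ones. The gap was also wide in Wing cells, at 31136 against 20419 in control and 36712 against 20247 in diabetic cells, and in control Squam cells, at 40191 against 22532. The part of depth in these shares was not tested.

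Of the cells with 5 or more UMIs of the set, 32.3% (30.2 to 34.4) in control and 37.6% (35.4 to 39.9) in diabetic cells also held 2 or more mitotic UMIs. Within TAC1 these shares were 21.9% and 21.6%, within TAC2 86.8% (83.1 to 89.9) and 93.7% (91.1 to 95.7). In Wing cells they were 11.1% (5.87 to 18.6), or 12 of 108 cells, and 28.7% (20.1 to 38.6), or 29 of 101 cells. In LSC cells they were 2 of 30 and 22 of 83.

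To describe the level inside such cells beside their number, each member was measured in cells holding 5 or more UMIs of the other 40. There the median member was 12.8 times higher than in the remaining cells in control and 12.9 times in diabetic cells. The diabetic over control ratio inside these cells had a median of 0.938 and ranged from 0.752 to 1.33. Its interval lay above 1 for 3 members (Tk1 at 1.28, Pold1 at 1.28 and Rrm1 at 1.22), below 1 for 10 and held 1 for the other 28. Over all genes with 50 or more UMIs in such cells, intervals lay above 1 for 14.4% and below 1 for 12.6%. The members below 1 included Cdc6 at 0.752, Ung at 0.790, Mcm4 at 0.845 and Hells at 0.857. These counts turned on settings, from 0 to 7 members above 1 and from 2 to 14 below. The ratios also mix level with label makeup. Of the cells with 5 or more UMIs of the set, TAC1 gave 58.1% in control and 49.3% in diabetic cells, and TAC2 20.4% and 25.3%. The part of that makeup in these ratios was not tested.

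Of 62 other replication genes, 47 had a ratio above 1 over all cells, against 55.3% of all genes, and the median log2 ratio was 0.10. None passed the rule of size, against 3.3% of all genes higher and 1.89% lower. The 4 with the most counts were the polymerase epsilon subunit Pole4 (94.2 and 123 CPM, ratio 1.31), the clamp loader Rfc1 (59.8 and 63.8), the histone chaperone Nasp (55.6 and 59.4) and the polymerase delta subunit Pold4 (48.7 and 55.0). In TAC2 cells, with 58 of the 62 measured, Ticrr and Pold3 were higher (ratios 2.07 and 1.51) and Pold2 lower (0.659) by the rule. Over all genes measured there, 1.46% were higher and 0.827% lower. Without thinning, none of the 62 passed in TAC2 cells, against 240 of 10852 genes higher and 147 lower. Unthinned log2 ratios of the 62 ran from -0.441 to 0.466 in these cells, so the 3 calls were seen in the draw only. In LSC cells, with 22 measured, Topbp1, which acts with Ticrr in origin firing, was higher (2.06). There 4.13% of all genes passed in either direction. The 20 genes of G2 and mitosis had the higher ratios. All 20 had a ratio above 1 over all cells, against 55.3% of all genes, and 5 passed the rule as higher, against 3.3%. Their sum was 1.49 UMIs per cell in control and 2.08 in diabetic cells (ratio 1.40, 1.37 to 1.43), and their median log2 ratio was 0.46. Without thinning 19 of the 20 passed as higher, against 5.98% of all genes, and the ratio of the sum was 1.63. Within TAC2 cells that sum had a ratio of 1.14 (1.11 to 1.16), and none of its genes passed.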

How the data were processed

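The deposited matrix holds raw UMI counts per gene and cell, made by the authors, with a table giving each cell its library and label. Cell Ranger 5.0.0, Seurat 4 and the mm10 build are named in the submitters' processing notes, with no role given, and no other setting is given there. The authors' cell filters were not restated, and the deposited cells held at least 520 UMIs and at most 29.3% mitochondrial counts. The matrix was used as deposited, 17808 cells and 17492 genes, with 0 columns of other samples. All counts and intervals were computed with Python 3.11.15, numpy 2.4.6, scipy 1.17.1 and pandas 2.3.3, and figures with matplotlib 3.10.9.

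Each cell was thinned without replacement to 5000 UMIs with a fixed seed, which left out 486 control and 264 diabetic cells. Levels carry exact Poisson intervals, ratios exact conditional binomial ones and shares Clopper-Pearson ones, all at 95%. They cover counting error only, and 1 library per group allows no test. The rule of size was applied to all genes of the table with 50 or more summed counts. The procedure was tested on simulated Poisson counts, the same error that the intervals assume. Those counts held no variation between mice or libraries, so the test cannot show how the rule behaves under it. Named members were the 2 with the most counts in each of 6 role groups plus any past the rule in all, TAC1 or TAC2 cells. Members and lists were chosen with earlier results of these data known. Doublets were scored with Scrublet in scanpy 1.11.5, whose automatic threshold marked 0 control and 2 diabetic cells, so the alternative left out the top 8% of scores. Promoter sequences and the build GRCm38.p6 are from RefSeq. Protein sequences were not used here.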

Additional observations from a re-analysis of the deposited data

Results flagged for a closer look

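Summed over the 41 genes at matched depth, the diabetic over control ratio was 1.33 in LSC cells and 0.966 in TAC1 cells, with intervals of 1.21 to 1.47 and 0.945 to 0.988. These values stand out because the same contrast ran in opposite directions under 2 labels. The difference between them was not tested, since each label holds 1 library per group.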

How the results depend on the processing

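Over 32 results and 17 settings, the ratio of the summed genes over all cells was 1.04 and became 1.07 at 10000 UMIs per cell, 1.02 without likely doublets, 1.18 unthinned, 1.01 with median-of-ratios scaling and 0.998 with the same label makeup in both libraries, where it changed direction. The LSC ratio of 1.33 became 1.57 at 2000 UMIs, 1.49 unthinned and 1.53 with every cell at equal weight. At 10000 UMIs it fell to 1.22 (1.12 to 1.33). The TAC1 ratio of 0.966 became 0.938 at 2000 UMIs and 0.973 at 10000 UMIs. Members lower in TAC2 by the rule of size numbered 1 in place of 0 unthinned, at equal weight and in the expected value of the thinning. At the looser minimum ratio (0.32 on the log2 scale), 4 members were higher over all cells, against 7.65% of all genes, and 1 was lower in TAC1, against 2.78%. The causes of these shifts were not tested. Counts of members leaning to TAC1, of those higher with mitotic UMIs and of those differing inside rich cells moved with depth, the seed or the minimum of UMIs, as given with each. The settings on shared barcodes, on the expected value and for LSC, TAC order, mitotic and rich-cell results were added after seeing the data. No paired analysis was possible because each group is 1 library, and no replicate could be left out. Depth limits the low members: in LSC cells 16 of 41 reached 50 UMIs, in Conj cells 6. Pools of 2 mice share no replicate, so differences between mice cannot be told apart from the treatment.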

Other observations

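Further genes of the replication list passed the rule of size under single labels at matched depth. E2f7, a repressor of the E2F family, was lower in diabetic Basal cells (ratio 0.593) and Wing cells (ratio 0.532). Another gene of that list was higher in Wing cells. Ssrp1, a histone chaperone subunit, was lower in Conj cells (ratio 0.613). Over all measured genes, 4.15% passed in either direction in Basal, 3.89% in Wing and 3.65% in Conj cells. Without thinning, 0 genes of the list were lower by the rule in Wing cells, against 313 of 12080 genes. In Conj cells 0 were lower as well, against 182 of 9319. The lowest unthinned log2 ratios of the list were -0.427 in Wing and -0.488 in Conj cells. The Wing call of E2f7 and the Conj call of Ssrp1 were thus seen in the draw only. In Basal cells 2 genes of the list were lower unthinned, against 274 of 11526. In Wing cells the 20 genes of G2 and mitosis summed to 0.221 UMIs per cell in control and 0.319 in diabetic cells, a ratio of 1.44 (1.29 to 1.62), and in Squam cells to 0.133 and 0.105, a ratio of 0.793 (0.634 to 0.989). The few Immune cells deep enough to thin, 4 in control and 1 in diabetic, held 40 and 4 UMIs of the 41 genes.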
